A study of Mus musculus with 9 samples.

Results

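Immediate early genes are followed here over 3 mouse strains and 2 air pressures in whole lung. The group consists of 10 genes, Fos, Fosb, Jun, Junb, Egr1, Egr2, Nr4a1, Atf3, Ier2 and Dusp1, and every probe set whose only annotated gene symbol is 1 of these was taken. This gave 12 probe sets, 2 each for Jun and Egr2 and 1 for each other gene, of 45037 probe sets on the array that are no controls. All 12 passed the filter that left out the dimmest 40% of probe sets, and 27022 probe sets were tested in all.

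Hypoxic mice of the BL6 (C57/BL6), FVB/N and SV129 strains were kept for 4 weeks in hypobaric hypoxia at 50 kPa, and normoxic mice of the same strains at 85 kPa, the air pressure at the altitude of Denver. RNA of the whole right lung was hybridised to one-colour oligonucleotide arrays, 2 hypoxic arrays and 1 normoxic array for each strain, 9 in all. The normoxic mice were thus themselves below sea-level pressure, and the labels give neither age nor sex. Whether the 2 arrays of a pair stem from different animals is not stated, and the p-values therefore describe the spread among these arrays, which may be technical.

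Immediate early genes are transcribed within minutes of a signal at the cell surface, without new protein having to be made first, and their mRNAs decay quickly. Most code for transcription factors, which in turn switch on later genes. The serum response factor, bound at CArG boxes, and CREB, bound at the cyclic AMP response element, are the classic activators of their promoters, and MAP kinases carry the signal to both. In lung, growth factors, stretch, injury and inflammatory mediators are known to raise them.

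Values are the deposited signals, a linear intensity for each probe set and array that the authors scaled to a common trimmed mean. Differences between groups are on the log2 scale after quantile normalization, with 16 added to each signal, and were tested with limma with Benjamini-Hochberg adjustment over all 27022 probe sets at a threshold of 0.05. In whole lung, fewer cells of a type and less RNA per cell cannot be told apart. Hypoxic BL6 array 2 and the normoxic FVB/N array stood apart from the rest. A list of 11 kidney genes averaged a log2 level of 11.69 and 12.76 on these 2, and between 5.71 and 6.39 on the other 7. The lung markers were present on all arrays, with the signal of Ager, the receptor of type 1 alveolar cells, between 20361 and 35759. Hypoxia across strains and the comparisons between strains were also fitted without these 2 arrays. Before normalization the 8 lung markers summed to 122500 to 124600 on the normoxic arrays and 164800 to 196200 on the hypoxic arrays. Signals of bright members at the 2 pressures should thus be read beside the normalized differences.

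Fos and Jun family proteins pair up as the AP-1 transcription factor. Fos, at chr12:85473890-85477274 in the mouse build GRCm38.p6, had signals of 2445 and 2330 on the hypoxic BL6 arrays and 1855 on the normoxic BL6 array. In FVB/N lung its signals were 1689 and 5809 under hypoxia and 5561 under normoxia, and in SV129 lung 20565 and 20100 under hypoxia and 12660 under normoxia. All 3 SV129 arrays lay above all 6 arrays of the other strains, and hypoxic FVB/N array 2 was the lowest of the 9. After normalization Fos in hypoxic SV129 lung was 0.32 above normoxic SV129 lung on the log2 scale.

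Fosb, another AP-1 subunit, had signals of 92.5 and 28.6 on the hypoxic BL6 arrays and 47.0 on the normoxic one. Its FVB/N signals were 16.8 and 113 under hypoxia and 58.9 under normoxia, and its SV129 signals 348 and 86.6 under hypoxia and 450.1 under normoxia. On hypoxic FVB/N array 2 its signal was close to the 16 added to all signals, so differences from that array are understated. Hypoxic SV129 array 5 lay among the arrays of the other strains, while the other 2 SV129 arrays lay above them all.

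Junb, a Jun family subunit that often restrains the action of Jun, had signals of 815 and 745 on the hypoxic BL6 arrays and 606 on the normoxic one. In FVB/N lung they were 703 and 1724 under hypoxia and 1524 under normoxia, and in SV129 lung 5666 and 1184 under hypoxia and 2863 under normoxia. The 3 BL6 arrays lay below the 3 SV129 arrays, but hypoxic SV129 array 5 fell inside the range of FVB/N. Atf3, a stress-induced partner of AP-1 subunits, showed the same array inside the FVB/N range, with SV129 signals of 642 and 328 under hypoxia and 838 under normoxia, and FVB/N signals of 230 and 596 under hypoxia and 293 under normoxia. Its BL6 signals, between 172 and 260, lay below all SV129 arrays.

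Jun itself varied least by strain. Its brighter probe set, 1417409_at, ranged from 4512 to 7330 over the BL6 arrays, from 5569 to 6720 over the FVB/N arrays and from 5779 to 8084 over the SV129 arrays, so the strains overlapped. Its other probe set, 1448694_at, ran from 2178 to 3534, from 2980 to 3582 and from 3887 to 4321 in the same strains, with SV129 above the other 6 arrays by a small margin. The 2 Jun probe sets had a Pearson correlation of 0.812 over the 9 arrays.

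The Egr proteins are zinc-finger transcription factors. Egr1, at chr18:34861207-34864956 in GRCm38.p6, had signals of 1593 and 1320 on the hypoxic BL6 arrays and 1304 on the normoxic BL6 array. Its FVB/N signals were 3802 and 6762 under hypoxia and 9953 under normoxia, and its SV129 signals 21461 and 27093 under hypoxia and 12366 under normoxia. The 3 strains did not overlap: BL6 was lowest, FVB/N in between and SV129 highest. After normalization Egr1 in hypoxic SV129 lung was 0.56 above normoxic SV129 lung on the log2 scale.

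Egr2, at chr10:67534469-67542188, had signals on its brighter probe set, 1427683_at, of 244 and 203 on the hypoxic BL6 arrays and 151 on the normoxic one. In FVB/N lung they were 248 and 411 under hypoxia and 244 under normoxia, and in SV129 lung 844 and 1976 under hypoxia and 863 under normoxia. On this probe set the strains did not overlap, although the highest BL6 array and the lowest FVB/N array were almost equal. The dimmer probe set, 1427682_a_at, ranged from 345 to 576 in SV129 lung and from 45.7 to 164 over the other 6 arrays. BL6 and FVB/N overlapped on it, with the normoxic BL6 array at 164 and the FVB/N arrays from 69.2 to 112.

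Nr4a1, an orphan nuclear receptor at chr15:101253902-101274795, had signals of 1539 and 1203 on the hypoxic BL6 arrays and 836 on the normoxic one. In FVB/N lung they were 705 and 2222 under hypoxia and 1673 under normoxia, and in SV129 lung 6838 and 5392 under hypoxia and 4935 under normoxia. The 3 SV129 arrays stood above the other 6, and BL6 and FVB/N overlapped.

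Dusp1, at chr17:26505591-26508472, is a phosphatase that switches off MAP kinases and so limits its own inducers. Its signals were 11833 and 11150 on the hypoxic BL6 arrays and 8837 on the normoxic one, 11726 and 14895 in FVB/N under hypoxia and 10911 under normoxia, and 24683 and 21163 in SV129 under hypoxia and 15360 under normoxia. SV129 was above the other strains on every array, and within each strain both hypoxic arrays were above the normoxic one, although after normalization hypoxic SV129 array 5 was almost level with it. Ier2, a nuclear protein of the early response, had SV129 signals of 10548 and 3569 under hypoxia and 6523 under normoxia, and its BL6 and FVB/N arrays ran from 2634 to 4311. Hypoxic SV129 array 5 was again inside the range of the others.

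**Figure D1:**
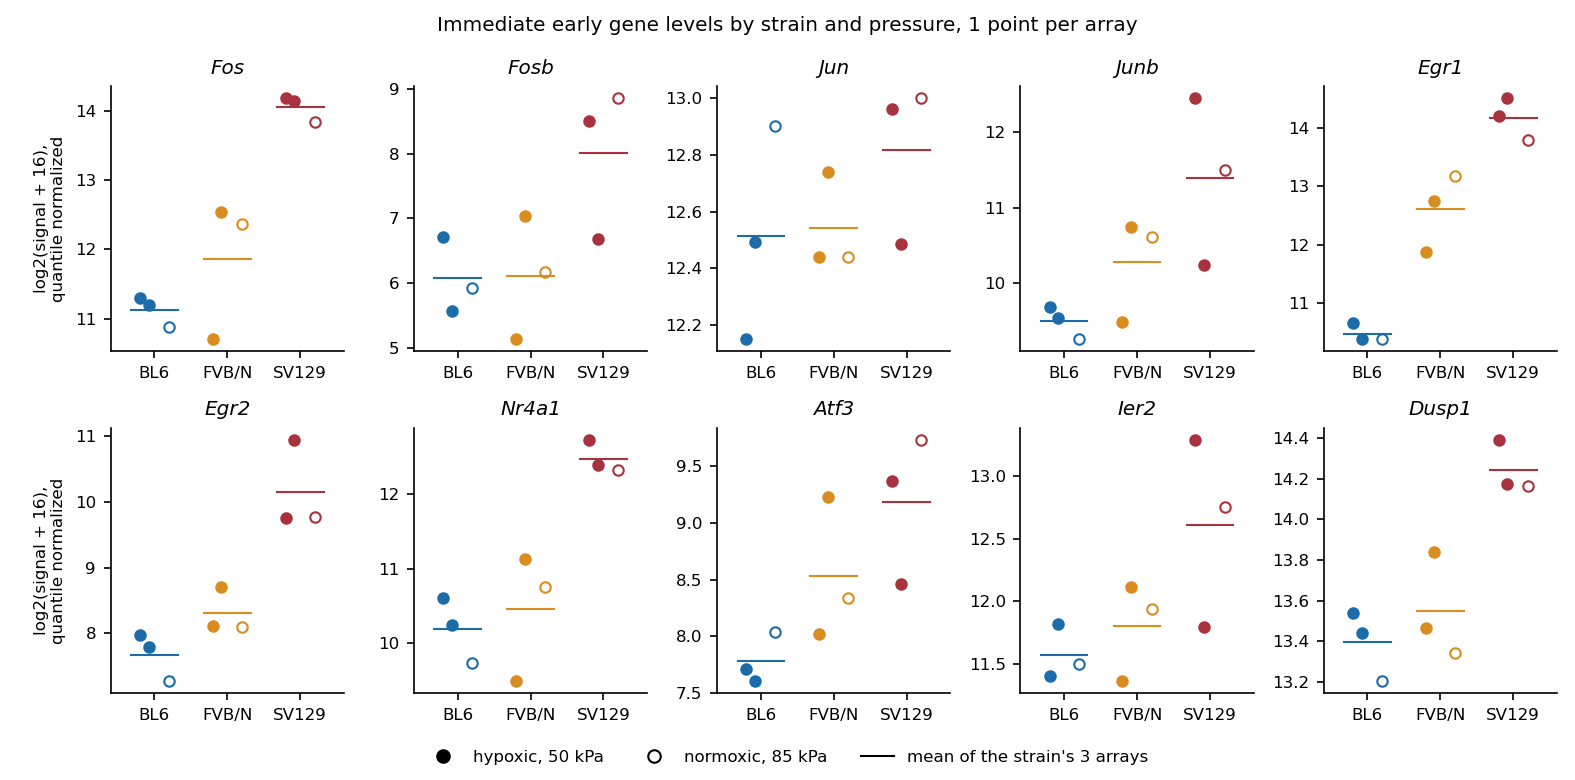
Level of each member on every array, as log2 of the quantile-normalized signal plus 16, by strain, with hypoxic arrays left of the normoxic array. For Fos, Egr1, Egr2, Nr4a1 and Dusp1 the 3 SV129 arrays are above the other 6, whereas for Fosb, Junb, Atf3 and Ier2 hypoxic SV129 array 5 falls among them.

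Promoter sequence is shown for members that differed between strains, with Jun beside them as the member that varied least. Windows of the 250 bases before the transcription start were taken from a table of RefSeq promoters (GRCm38.p6), and windows of 8 of the 10 members, all but Egr1 and Ier2, were used, with 5 start sites for Egr2. Capitals mark TGACG, the core of the cyclic AMP response element, on either strand (CGTCA on the printed strand), and in Dusp1 the whole element TGACGTCA, which contains TGACG on both strands. The windows are chr12:85473640-85473889 on the plus strand for Fos, chr15:101266596-101266845 on the plus strand for Nr4a1, chr17:26508473-26508722 on the minus strand for Dusp1 and chr4:95052223-95052472 on the minus strand for Jun.
Fos: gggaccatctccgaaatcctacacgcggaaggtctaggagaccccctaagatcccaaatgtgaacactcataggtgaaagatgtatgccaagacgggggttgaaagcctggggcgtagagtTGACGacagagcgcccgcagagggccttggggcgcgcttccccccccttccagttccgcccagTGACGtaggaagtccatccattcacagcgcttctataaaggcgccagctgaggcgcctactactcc
Nr4a1: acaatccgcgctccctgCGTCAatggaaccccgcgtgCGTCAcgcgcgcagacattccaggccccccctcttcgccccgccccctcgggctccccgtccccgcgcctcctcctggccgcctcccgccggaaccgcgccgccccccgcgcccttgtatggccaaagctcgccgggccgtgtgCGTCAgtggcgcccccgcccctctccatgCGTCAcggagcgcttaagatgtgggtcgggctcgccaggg
Dusp1: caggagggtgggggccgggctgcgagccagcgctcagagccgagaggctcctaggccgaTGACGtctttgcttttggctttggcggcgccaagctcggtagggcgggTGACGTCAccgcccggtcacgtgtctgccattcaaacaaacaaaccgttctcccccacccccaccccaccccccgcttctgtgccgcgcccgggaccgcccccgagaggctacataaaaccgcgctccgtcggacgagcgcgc
Jun: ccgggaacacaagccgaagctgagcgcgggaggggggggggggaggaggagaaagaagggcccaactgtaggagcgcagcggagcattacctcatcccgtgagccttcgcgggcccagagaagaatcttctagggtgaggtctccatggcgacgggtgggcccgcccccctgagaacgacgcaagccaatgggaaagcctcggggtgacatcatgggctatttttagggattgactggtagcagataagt

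TGACG was found in the windows of 7 of the 8 members, all but Jun, against 17.77% of the 32851 promoter windows in the table. Egr2 was counted where any of its 5 windows held the motif. In Fos it began 129 and 66 bases before the start, with TATAAA at 33 to 28 bases before it, and in Nr4a1 CGTCA occurred 4 times. The whole element TGACGTCA was in 1 member, Dusp1, at 143 to 136 bases before the start, and in 1.55% of all windows. The CArG box was in 1 member, Egr2, and in 1.47% of all windows. The Egr2 stretch below, chr10:67537793-67537822 on the plus strand, lies 76 to 47 bases before the start site at 67537869 and is shown because it holds the CArG box and CGTCA side by side, both in capitals.
Egr2: cagtCCATATATGGgcagcgaCGTCAcggg

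The Egr motif GCGNGGGCG was in 2 members, Fosb and Nr4a1, against 4.7% of all windows. TATAAA was in 1 member, Fos, against 12.37%, and the AP-1 motif TGANTCA in 0 of 8, against 6.75%. Both strands of these windows were searched for exact matches to every motif. Sites farther from the start or with other letters were not counted. The reference sequence is 1 mouse genome and holds nothing about differences between the 3 strains.

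In BL6 lung, 5 of the 10 genes were lower than in SV129 lung. Egr1 was 13.0-fold lower in BL6 (log2 difference −3.70 ± 0.31, SE, adjusted p = 0.000584), Fos 7.59-fold lower (−2.92 ± 0.42, adjusted p = 0.00773) and Egr2 5.57-fold lower (−2.48 ± 0.30, adjusted p = 0.0036). Nr4a1 was 4.84-fold lower (−2.27 ± 0.39, adjusted p = 0.0176) and Dusp1 1.80-fold lower (−0.85 ± 0.13, adjusted p = 0.0101). With the other Egr2 probe set (−2.35, adjusted p = 0.00299), 6 of the 12 probe sets passed the test downward and 0 upward, against 1.16% of all probe sets downward, 1.35% upward and 2.51% in either direction. Nr4a1 lost this call when hypoxic BL6 array 5, either hypoxic SV129 array, the normoxic BL6 array or the normoxic SV129 array was left out, with adjusted p-values up to 0.0956. Dusp1 lost it without hypoxic BL6 array 5 (adjusted p = 0.0739) or without the normoxic SV129 array (adjusted p = 0.0704).

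The other 5 members were also below SV129 in BL6 but did not pass. Junb differed by −1.90 ± 0.52 (adjusted p = 0.11), Atf3 by −1.40 ± 0.37 (0.0969) and Ier2 by −1.04 ± 0.35 (0.191), all on the log2 scale with limma. The brighter Jun probe set differed by −0.30 ± 0.20 (adjusted p = 0.512) and the dimmer one by −0.56 ± 0.18 (adjusted p = 0.166). Fosb had a mean log2 level of 6.07 in BL6, 6.11 in FVB/N and 8.02 in SV129, and the filter level was 6.13. It passed the filter through SV129 alone, so its difference of −1.94 from SV129 in BL6 and −1.91 in FVB/N is a description. Junb and Ier2 passed when hypoxic SV129 array 5 was left out, at −2.50 (adjusted p = 0.0345) and −1.46 (adjusted p = 0.0471), Atf3 when hypoxic FVB/N array 6 was (adjusted p = 0.0411), and the dimmer Jun probe set, at −0.56, when the normoxic FVB/N array was (adjusted p = 0.048). The median difference of the 10 members was −1.92, with 10 of 10 negative (Fosb, kept by the filter through SV129, among them), and that of all probe sets −0.03, with 53.3% negative. In terms of single arrays, 9 of 12 probe sets had all BL6 arrays below all SV129 arrays, against 11.5% of all probe sets.

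FVB/N lung was also below SV129 lung, in the same 5 genes. Fos was 4.54-fold lower in FVB/N (−2.18 ± 0.42, adjusted p = 0.0262), Nr4a1 4.04-fold lower (−2.01 ± 0.39, adjusted p = 0.0287), Egr1 2.96-fold lower (−1.57 ± 0.31, adjusted p = 0.0323) and Dusp1 1.62-fold lower (−0.69 ± 0.13, adjusted p = 0.0226). Egr2 differed by −1.85 ± 0.30 (adjusted p = 0.0129), and its other probe set by −2.00 (adjusted p = 0.0059). These are 6 of 12 probe sets, with 0 higher, against 1.83% of all probe sets that were lower in FVB/N, 1.06% that were higher and 2.89% in either direction. For 7 of 12 probe sets all FVB/N arrays were below all SV129 arrays, against 10.7% of all. The remaining genes past the filter in both strains, Junb (−1.11, adjusted p = 0.339), Ier2 (−0.81, 0.299), Atf3 (−0.66, 0.425) and Jun (−0.28, 0.537), did not pass in limma.

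The FVB/N calls depended on single arrays. Of the 6 probe sets, 2 stayed past the threshold without hypoxic BL6 array 5, without hypoxic SV129 array 2 or without the normoxic SV129 array, and 3 without hypoxic FVB/N array 2 or hypoxic SV129 array 5. The sign of all 10 members (Fosb, kept by the filter through SV129, among them) stayed negative under every setting tried, in this comparison and in that of BL6 with SV129. The 2 comparisons share the 3 SV129 arrays, so they are not independent of each other. Lower in both were 6 of 12 member probe sets and 0.448% of all probe sets.

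**Figure D2:**
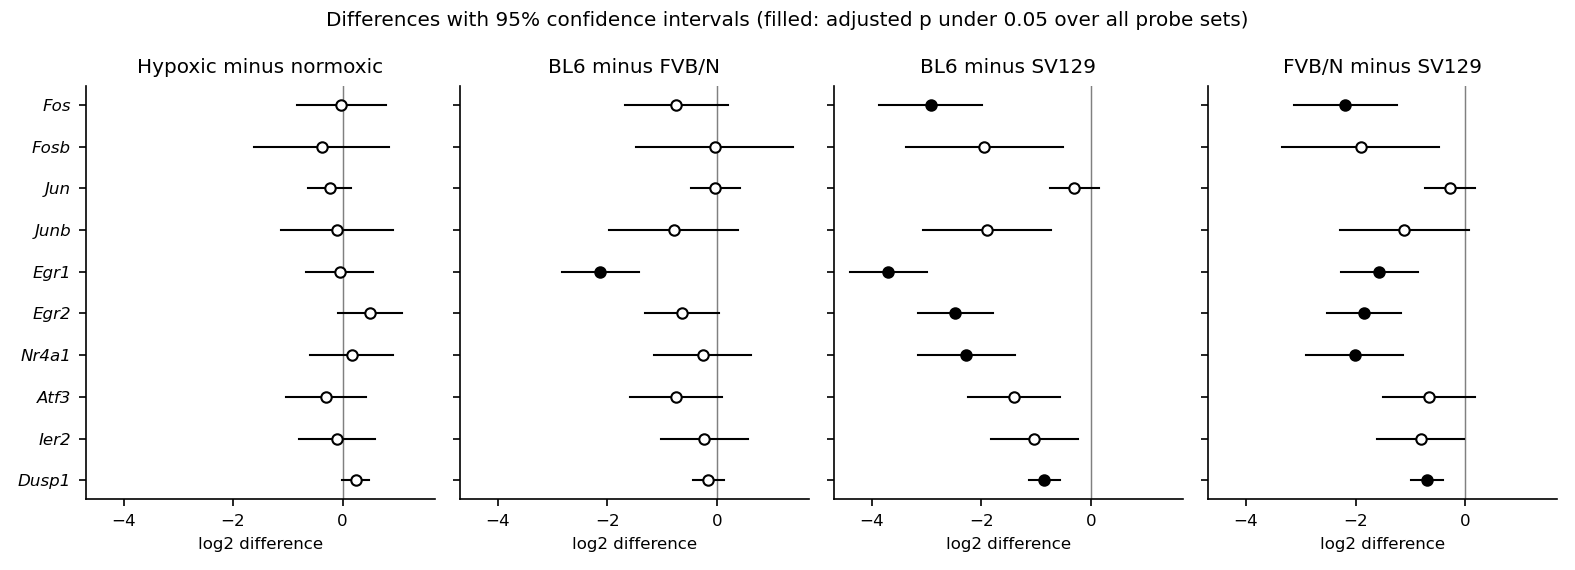
Log2 difference of each member, by its brightest probe set, with its 95% confidence interval for hypoxia across strains and for the strain comparisons, with filled points for adjusted p under 0.05. Intervals for hypoxia lie around 0, while Egr1, Fos, Egr2, Nr4a1 and Dusp1 lie below 0 in BL6 and in FVB/N set against SV129.

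Between BL6 and FVB/N, 1 of 12 probe sets passed, Egr1, with 0 higher in BL6, against 0.548% of all probe sets lower in BL6, 1.52% higher and 2.07% in either direction. All BL6 arrays were below all FVB/N arrays for 2 of 12 probe sets, of Egr1 and Egr2, against 6.49% of all, and below the other 6 arrays for the same 2, against 2.63%. Egr1 was 4.38-fold lower in BL6 (−2.13 ± 0.31, adjusted p = 0.00796), and no call was left without hypoxic BL6 array 5 or without the normoxic BL6 array. Fos differed by −0.74 ± 0.42, with the FVB/N arrays far apart, and passed at −1.37 (adjusted p = 0.00321) without hypoxic FVB/N array 2. The members' median difference was −0.45, against −0.01 over all probe sets.

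The strain differences were seen at both pressures. Among the hypoxic arrays alone, Fos in BL6 was −2.91 from SV129 on the log2 scale, and among the normoxic arrays −2.95. For Egr1 these were −3.84 and −3.42, for Egr2 −2.47 and −2.50, for Nr4a1 −2.12 and −2.58 and for Dusp1 −0.79 and −0.96. All 12 probe sets were negative at both pressures, for BL6 and for FVB/N set against SV129. Fosb, kept by the filter through SV129, is among them, and the brighter Jun probe set was at only −0.10 in normoxic BL6. The share of all probe sets negative at both pressures was not worked out. In FVB/N the values were less alike, with Fos at −2.54 among hypoxic arrays and −1.47 among normoxic arrays, and Egr1 at −2.04 and −0.61. The normoxic values compare 1 array with 1 array and have no replicate check. The normoxic FVB/N array and hypoxic BL6 array 2 held kidney transcripts, whose part in the values at each pressure was not tested.

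**Figure D3:**
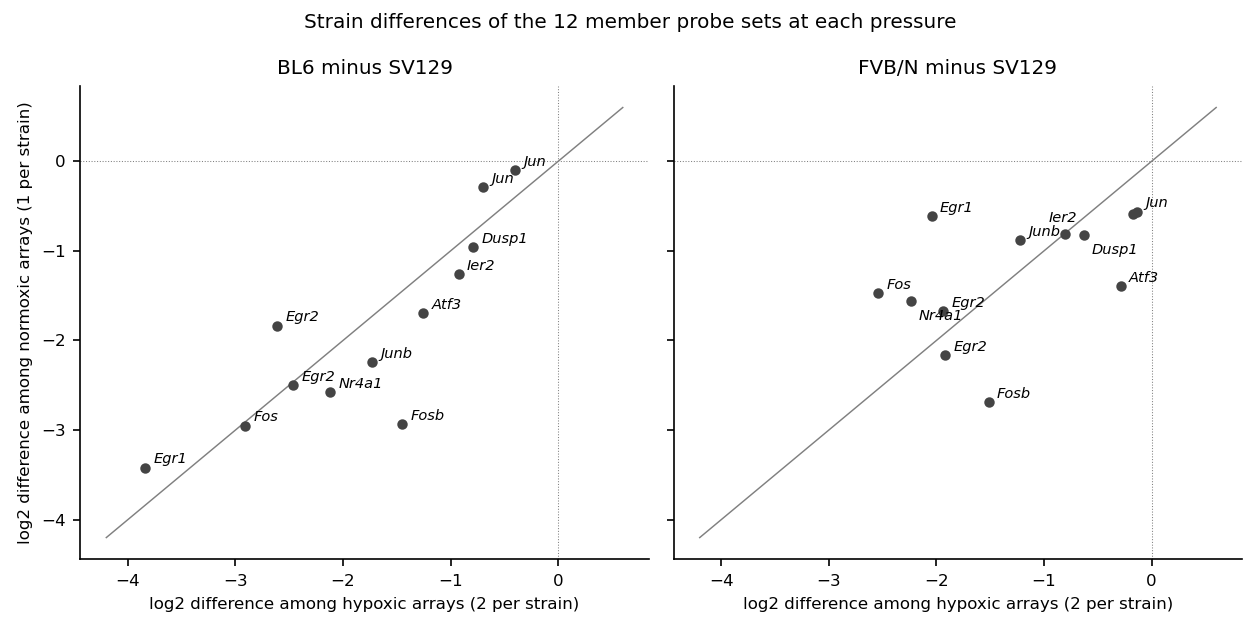
Log2 difference from SV129 among the 2 hypoxic arrays per strain (x axis) against that among the single normoxic arrays (y axis) for the 12 probe sets, with the line of equality. All points lie below 0 on both axes, for BL6 (left) and FVB/N (right), and Fosb, kept by the filter through SV129, is among them.

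Without both arrays that held kidney transcripts, the 6 probe sets passed again in BL6 set against SV129, against 2.06% of all probe sets in that fit. Egr1 was at −3.74 ± 0.26 (adjusted p = 0.000416), Fos at −2.96 ± 0.43 (adjusted p = 0.0142), Egr2 at −2.54 and −2.20, Nr4a1 at −2.40 (adjusted p = 0.0265) and Dusp1 at −0.91 (adjusted p = 0.0163). In FVB/N set against SV129, 5 of the 6 passed again, against 2.15% of all, and Dusp1 was at −0.66 (adjusted p = 0.0629). Egr1 in BL6 set against FVB/N was at −1.76 (adjusted p = 0.0393), with 1.2% of all probe sets called.

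Other measures of the arrays moved with strain too. The actin 3′ to 5′ signal ratio, a sign of RNA quality that rises with degraded RNA, was 1.17 to 1.20 in BL6, 1.16 to 1.42 in FVB/N and 1.32 to 1.55 in SV129, and the Gapdh ratio 0.808 to 0.910, 0.831 to 1.05 and 0.945 to 1.19 in the same strains. The summed signal of 6 macrophage markers was 11640 to 15120 in BL6, 3862 to 4417 in FVB/N and 14660 to 17150 in SV129, with 1 marker lower in BL6 (Marco, a scavenger receptor of alveolar macrophages) and 3 lower in FVB/N (Marco, Chil3 and Mrc1) than in SV129. The sum over 6 neutrophil markers was 4057 to 6843 in BL6, 12970 to 24310 in FVB/N and 1364 to 7618 in SV129. Against SV129, Ltf was higher in BL6, and S100a8 and S100a9 were higher in FVB/N. The mean log2 level of these markers overlapped, at 8.848 to 9.284, 8.757 to 10.422 and 7.245 to 8.948 in the same strains. Ltf, Ngp and Camp were lower on both hypoxic FVB/N arrays than on any BL6 array, while Ngp and Camp were higher on the normoxic FVB/N array. White adipocyte markers summed to 1905 to 10620, 63.9 to 3623 and 125 to 1209, with Adipoq and Retn higher in BL6, and 6 T, NK and B cell markers to 2709 to 2985, 1846 to 3874 and 1755 to 2163, with Nkg7 higher in FVB/N. The part of these in the strain differences was not tested.

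Heart muscle markers summed to 7762 to 25380 in BL6, 9738 to 14620 in FVB/N and 11220 to 19830 in SV129. Erythroid markers summed to 2960 to 4191, 3752 to 7344 and 2604 to 4009. Brown adipocyte and fast skeletal muscle markers summed to 420 to 894, 590 to 17990 and 527 to 663. None of the markers on these 3 lists, of the 8 lung markers or of the 10 tested kidney genes passed between SV129 and BL6 or FVB/N. The lung markers held a mean log2 level of 13.65 to 14.20 on all arrays.

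After 4 weeks of hypoxia none of the members passed the test. Across strains 0 of 12 probe sets were called, against 3.76% of all probe sets, and at an unadjusted p under 0.05 there was 1, against 22.2%. The 6 hypoxic arrays were all above the 3 normoxic ones for 0 of 12, against 6.53% of all, and all below for 0 of 12, against 4.12%. Fos differed by −0.02 ± 0.36 (95% confidence interval −0.83 to 0.79, adjusted p = 0.98), Egr1 by −0.05 ± 0.27 (−0.66 to 0.56, adjusted p = 0.927) and Nr4a1 by 0.16 ± 0.34 (adjusted p = 0.812). The others were Fosb at −0.38 ± 0.55, Junb at −0.10 ± 0.45, Jun at −0.23 ± 0.17, Atf3 at −0.30 ± 0.32 and Ier2 at −0.10 ± 0.30. Without both arrays with kidney transcripts Fos was at 0.32 ± 0.43 and Egr1 at 0.32 ± 0.26, and 0 of 12 probe sets passed, against 0.844% of all. The intervals of all 9 arrays leave room for changes of about 1 log2 unit in some members.

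Dusp1 and Egr2 had a common direction in all 3 strains. Dusp1 was higher on both hypoxic arrays than on the normoxic one in each strain, by 0.24 ± 0.11 on the log2 scale (interval −0.01 to 0.49, adjusted p = 0.241), a pattern that 14.5% of all probe sets shared. When arrays were centred on their medians in place of quantile normalization, the Dusp1 difference was 0.50 (adjusted p = 0.0431), with the median of all probe sets at 0.11 against 0.04. Egr2's dimmer probe set was lower on both hypoxic arrays in each strain, as were 8.77% of all probe sets, by −0.71 ± 0.24 (adjusted p = 0.129), and its brighter probe set went the other way, by 0.50 ± 0.26 (adjusted p = 0.299). The 2 Egr2 probe sets thus disagreed on the direction. With array weights the dimmer one passed (−1.07, adjusted p = 0.0448).

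Within a strain, 0 of 12 probe sets passed for hypoxia in BL6, FVB/N or SV129, against 0.0148%, 6.8% and 0% of all probe sets. At an unadjusted p under 0.05 there were 2, 1 and 0, against 12.5%, 26.1% and 7.58% of all probe sets. Each of these sets 2 hypoxic arrays against 1 normoxic array, which is assumed to vary like the other groups. The interaction of hypoxia and strain was passed by 0 of 12, against 0% of all, with 2 at an unadjusted p under 0.05, against 12.3% of all probe sets. These were Egr1 (adjusted p = 0.395 in limma) and the dimmer Jun probe set (adjusted p = 0.383). Egr1 was lower under hypoxia on both FVB/N arrays, by −0.87 ± 0.34, as were 31.3% of all probe sets there. The normoxic FVB/N array held kidney transcripts, whose part in this difference was not tested. On both SV129 arrays Egr1 was higher under hypoxia, as were 32.8% of all probe sets there. Hypoxia and the level of spiked control RNA cannot be told apart, since the bioC spike gave 959 to 1595 on hypoxic arrays and 301 to 315 on normoxic arrays, and the bioD spike 2355 to 4410 and 6523 to 7276. Each strain has the same number of arrays at each pressure, so the strains are balanced over it.

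**Figure D4:**
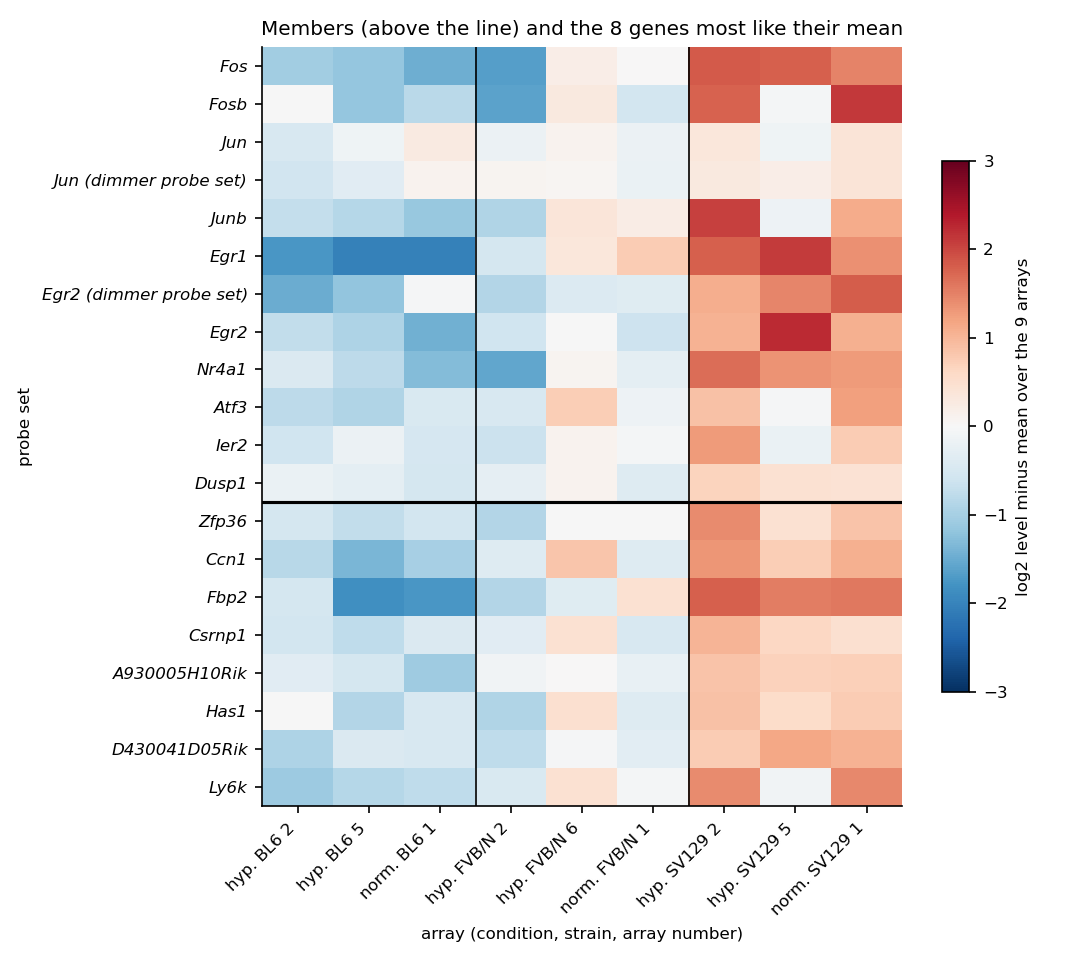
Level on the 9 arrays of each member probe set (above the line) and of the 8 genes most like the members' mean (below it), as the log2 difference from its mean over the arrays, with strains side by side and hypoxic arrays left of the normoxic array. The SV129 columns are high, and hypoxic FVB/N array 2 is low for Fos, Nr4a1, Fosb and Ier2.

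The members varied between arrays of 1 strain and pressure. Between the 2 hypoxic FVB/N arrays, Fos differed by −1.83 (array 2 minus array 6), Nr4a1 by −1.63, Fosb by −1.90, Junb by −1.26 and Atf3 by −1.21 on the log2 scale. Between the 2 hypoxic SV129 arrays, Junb differed by 2.21 (array 2 minus array 5), Fosb by 1.83, Ier2 by 1.49 and Egr2 by −1.19, but Fos by 0.04. The median absolute gap of the members was 0.23 in BL6, 1.04 in FVB/N and 0.69 in SV129, against 0.21, 0.23 and 0.35 over all probe sets. BL6 arrays were thus nearly as close for the members as for all probe sets, and FVB/N and SV129 arrays were not. Of the 10 members, 4 were lowest of the 9 arrays on hypoxic FVB/N array 2 (Fos, Fosb, Nr4a1 and Ier2) and 4 on the normoxic BL6 array (Junb, Egr1, Egr2 and Dusp1). The share of all probe sets lowest on each of these arrays was not worked out, so these counts are a description.

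Averaged over the 10 members, each centred on its own mean over the arrays, the 9 arrays had log2 levels of −0.67 and −0.84 (hypoxic BL6), −0.94 (normoxic BL6), −0.84 and 0.23 (hypoxic FVB/N), −0.13 (normoxic FVB/N), 1.33 and 0.73 (hypoxic SV129) and 1.12 (normoxic SV129). The SV129 arrays were the 3 highest. All 10 members stood above the 6 arrays of the other strains on hypoxic SV129 array 2 and on the normoxic SV129 array, and 5 of the 10 did on hypoxic SV129 array 5: Fos, Egr1, Egr2, Nr4a1 and Dusp1. Fosb, kept by the filter through SV129, is among the 10. The share of all probe sets that stood so on a single SV129 array was not worked out, so these counts are a description. The 7 of 12 probe sets for which all SV129 arrays were above the other 6 compare with 4.13% of all probe sets.

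Over the 9 arrays, Nr4a1 followed Fos most closely, with a Pearson correlation of 0.982 and the same rank order on every array. Egr1 had a correlation of 0.918 with Fos, Egr2 0.915, Dusp1 0.911, Junb 0.838, Fosb 0.809, Ier2 0.785, Atf3 0.783 and Jun 0.452. Taking each array as its deviation from the mean of its strain, Nr4a1 kept 0.945 and Egr1 0.857, whereas Egr2 had 0.359, Dusp1 0.417 and Jun −0.008. These are descriptions over 9 arrays that share the strain grouping and the arrays' own RNA. Leaving out the 2 hypoxic SV129 arrays, the farthest from the median of Fos, gave 0.966 for Nr4a1 and 0.986 for Junb.

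Zfp36, which codes for tristetraprolin, a protein that speeds the decay of mRNAs with AU-rich ends, had the level most like the members' mean among 12885 other genes (Pearson correlation 0.974). Ccn1, a secreted matrix protein, followed at 0.939, Fbp2, a muscle form of fructose bisphosphatase, at 0.935, and Csrnp1 at 0.923. The other 4 of the closest 8 were A930005H10Rik at 0.921, Has1 at 0.918, D430041D05Rik at 0.913 and Ly6k at 0.91. Fos alone was followed most closely by Marveld3 and Zfp36, both at 0.946, by D430041D05Rik at 0.945, Fbp2 at 0.937 and Errfi1 at 0.929. Zfp36 had signals of 2643 and 2321 on the hypoxic BL6 arrays, 2155 and 3812 on the hypoxic FVB/N arrays and 11062 and 5420 on the hypoxic SV129 arrays, against 2612, 4041 and 6742 on the normoxic arrays in the same order of strains. Fbp2 differed from SV129 by −3.02 in BL6 and by −1.91 in FVB/N on the log2 scale. It was picked for following the members' mean on these same arrays, so these values are a description.

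A further 6 lists of early genes and their regulators, with 89 genes tested, were set beside the members. Like the members, they were chosen with earlier results of these data known. In BL6, 7 of 89 genes were lower than in SV129 and 0 higher, against 1.03% lower among all 12895 genes. These were Il6, a cytokine of acute inflammation (−2.30 ± 0.34, adjusted p = 0.00953), Ccn1 (−2.11 ± 0.32, 0.011), Cxcl1, a neutrophil chemoattractant (−1.55, 0.0429), Zfp36 (−1.52, 0.0261), Csrnp1 (−1.29, 0.0309), Cebpd, a factor of the acute phase response (−1.14, 0.0349), and Dusp7, a MAP kinase phosphatase (−0.99, 0.0233), all by limma with the adjusted p in brackets. In FVB/N, Il6 (−2.04, adjusted p = 0.0143) and Nr4a2, a relative of Nr4a1 (−1.74, adjusted p = 0.0201), were lower than in SV129. These 2 of 89 are close to the share among all genes, 1.94%. The median over the 89 genes was −0.28 in BL6 and −0.21 in FVB/N set against SV129, and over all genes −0.02 in both. Between BL6 and FVB/N, 0 of 89 passed. Without both arrays with kidney transcripts, 4 of the 7 genes passed again in BL6 (Il6, Ccn1, Cxcl1 and Cebpd) and 1 of the 2 in FVB/N (Nr4a2), while Il6 in FVB/N was at −2.03 (adjusted p = 0.0554).

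By list, the early response genes held 5 of the 7 in BL6 among 37 tested, the Ier, Btg and Zfp36 genes 1 of 8, and the MAP kinase phosphatases 1 of 8. Of 5 other Egr and Nr4a genes and co-repressors, 0 passed in BL6 and 1 in FVB/N. Of 13 other AP-1 and small Maf subunits, 0 passed in either, with Maff at −0.86 in BL6 (adjusted p = 0.223) and −1.22 in FVB/N (adjusted p = 0.0846). Of 18 regulators upstream, 0 passed, with Srf, the serum response factor itself, at −0.60 in BL6 (adjusted p = 0.157) and −0.78 in FVB/N (adjusted p = 0.0681).

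**Figure D5:**
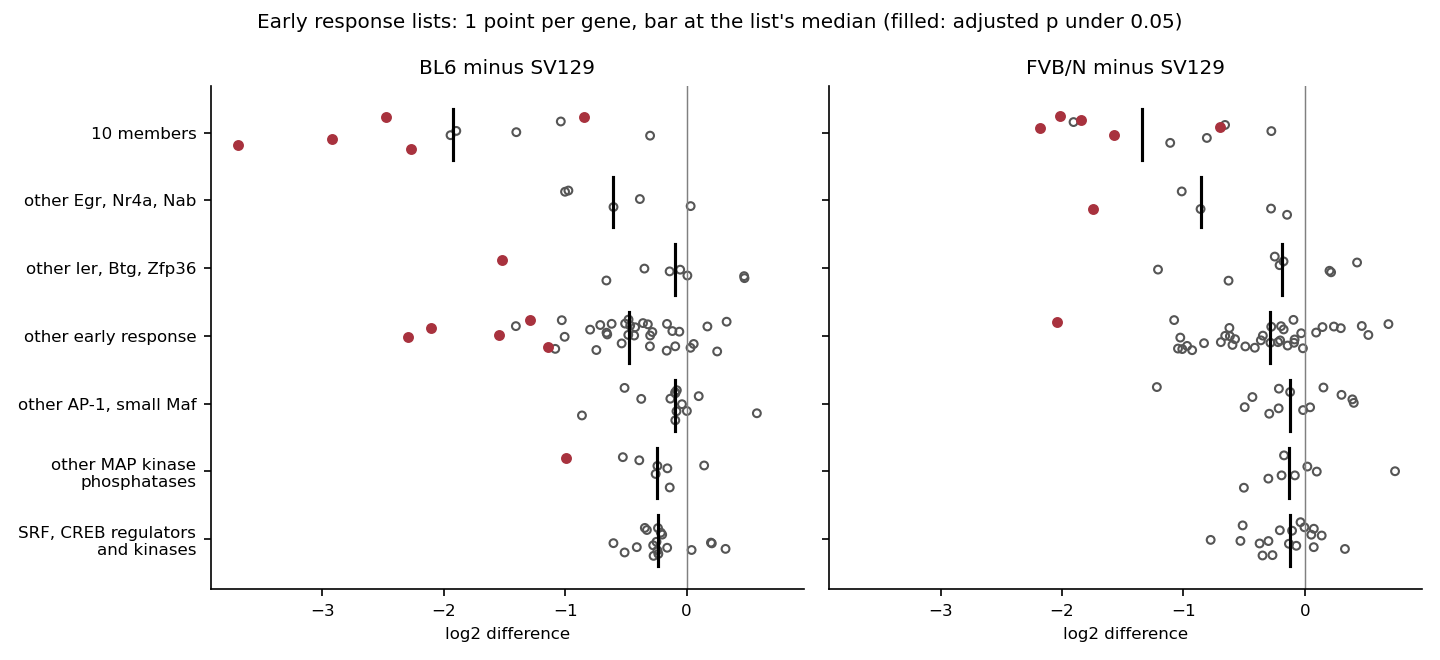
Log2 difference from SV129 of the genes of each list, for BL6 (left) and FVB/N (right), with 1 point per gene, filled where adjusted p is under 0.05, and a bar at the list median. Of the 7 sets of genes drawn the members have the lowest medians, at −1.92 and −1.34, with Fosb, kept by the filter through SV129, among them. Members and lists were chosen with earlier results of these data known.

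Under hypoxia 2 of these 89 genes were higher across strains and 0 lower, against 1.4% and 1.35% of all genes, so the counts are close to those shares. Klf2, a factor of endothelial cells under flow, was 1.71-fold higher under hypoxia (0.77 ± 0.16, adjusted p = 0.0396), and Dusp8, a phosphatase of stress-activated kinases, 1.97-fold higher (0.98 ± 0.14, adjusted p = 0.0166). In FVB/N alone 4 of 89 were higher, which is close to the share of 3.02% among all genes. These were Dusp8 (1.18), Klf4 (0.94), Gadd45b (1.33) and Tnfaip3 (1.26). Without both arrays with kidney transcripts neither Klf2 (0.69, adjusted p = 0.177) nor Dusp8 (0.90, adjusted p = 0.0721) passed in limma. The FVB/N values rest on 1 normoxic array, assumed to vary like the other groups. It is 1 of those 2 arrays, and its brown adipocyte and fast skeletal muscle markers summed to 17990, against 420 to 894 on the other 8 arrays. The part of these transcripts in the 4 calls was not tested. In BL6 and in SV129, 0 of 89 passed. Srf was at 0.64 across strains (adjusted p = 0.0644) and Egr3 at −0.84 (adjusted p = 0.111).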

How the data were processed

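The labels' protocols say that right lungs were snap frozen, that RNA was extracted on silica columns and that biotin-labelled target followed the array maker's manual. What was deposited is a table of linear intensity, with a signal for each probe set on each array, which the authors had scaled to a common mean of 500 after the extremes of 2% at each end were left out, as the values show. No source used here names the software, and no detection calls were used. The authors left out a further 12 arrays for technical reasons, per the design text, so the 9 arrays are a selected subset, and those 12 were not analysed here.

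Groups come from the array titles. Control probe sets (64) were left out, signals were quantile normalized as log2(signal + 16), and the dimmest 40% of probe sets by mean were dropped, leaving 27022. Limma 3.58.1 in R 4.3.3 (lmFit and eBayes with an intensity trend) was fitted to all 9 arrays with strain and pressure (5 residual degrees of freedom), and with all 6 groups for hypoxia within strains and the interaction (3). Adjusted p-values are Benjamini-Hochberg over all probe sets tested, and the fits were tested on simulated data. The number of arrays limits the precision. Of 45037 probe sets, 34945 have 1 gene symbol, 932 several and 9160 none, from the platform annotation, and 99.42% of those with 1 symbol matched RefSeq. A gene is represented by its brightest probe set. The members and lists were chosen with earlier results of these data known. From other lists, genes past the threshold are named, or else examples from the 3 largest changes. The genes most like the members are those with the highest Pearson correlation with the members' mean. Alternatives changed the scaling, pseudocount, filter, weights and each array in turn.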

Additional observations from a re-analysis of the deposited data

How the results depend on the processing

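Over 22 settings, the sign of every member (Fosb, kept by the filter through SV129, among them) stayed the same in BL6 and in FVB/N set against SV129. The counts of probe sets called did not. For hypoxia across strains the count was 0 as reported, 1 with median centring and 1 with array weights, and for hypoxia within each strain and the interaction it was 0 in every setting. With median centring, the share of all called probe sets that were higher under hypoxia was 71.3%, against 51.7%. For BL6 set against SV129 the count was 6 as reported, 3 to 7 over all settings, and 3 with the replicate block. For FVB/N set against SV129 the count was 6 as reported, 3 with array weights, 3 in the 6 hypoxic arrays alone and 2 with the replicate block, and from 2 to 6 with 1 array left out at a time. For BL6 set against FVB/N it was 1 as reported, 0 to 2 with 1 array left out at a time and 0 with the replicate block. The cause was not tested. Fos and Egr1 in BL6 set against SV129 kept their calls in 22 of 22 settings, with differences of −3.13 to −2.76 and −4.05 to −3.48 and adjusted p-values up to 0.0473 and 0.0109, and Egr2 in 21, Dusp1 in 19 and Nr4a1 in 16. In FVB/N set against SV129, Egr2 kept its call in 18, Fos in 17, Nr4a1 in 16, Egr1 in 13 and Dusp1 in 13. Array numbers 2 and 5 are shared by hypoxic BL6 and SV129. The differences between these 2 arrays had a correlation of −0.042 between the strains over 27022 probe sets. Hypoxic BL6 array 2 is 1 of the 2 arrays with kidney transcripts, and FVB/N has no part in this value. It therefore cannot show what same-numbered arrays share, which was not tested. The hypoxia comparison could not be blocked, since the normoxic arrays carry the number 1 alone. The member changes in strain comparisons under these settings, and the early list genes without both kidney arrays, were added after seeing the data.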
